A study of Mus musculus with 24 samples.

Results

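Serum extracellular vesicles (EVs) collected 24 and 72 h after tibia surgery (S24h and S72h, the late libraries) were compared with those of control mice and of mice bled 6 h after surgery (Control and S6h, the early libraries). Each pool held 12 small RNA libraries, 6 from each of its 2 groups and 1 per mouse, so that all 24 libraries of the series entered the comparison. Of 1966 mature miRNAs in the count table, 667 had at least 1 count and 252 had a CPM (the count scaled to a common library total) of at least 10 in at least 12 libraries, and the 252 were tested. They held 99.7% of all counts.

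The mice were wild type C57BL/6 males, 14 to 16 weeks old. The surgery groups received an open fracture of the tibia that was stabilized with a pin, under isoflurane and with buprenorphine. The S24h and S72h mice received analgesia daily, and the Control mice received saline. All groups therefore share the strain, sex and age, but the Control mice had neither fracture nor anaesthesia for surgery. EVs were precipitated from serum with a commercial kit, without selection by the cell of origin. The authors state that such precipitation might also bring down some contaminating proteins and miRNAs bound to lipoproteins. The following features of the design limit the comparison of the pools. The methods describe 1 set of control mice for the 6 h group and another for the 2 later groups, and the Control libraries are from the first set, while the second set was not analysed here. Protein and particle measurements of the same study were also made in 2 sessions divided in this way, whereas the RNA libraries were sequenced together. The methods give the lack of a significant difference between both control sets as the reason for using a single set, which could not be checked here. The time after surgery, the repeated analgesia and the set of animals thus cannot be told apart between the pools.

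A miRNA is a short RNA that guides Argonaute proteins to messenger RNAs, chiefly through its seed, the bases 2 to 8 from its 5′ end. Both strands of a hairpin precursor (the 5p and 3p arms) can give a mature miRNA, and hairpins that lie close together are often cut from 1 primary transcript. EVs carry miRNAs of the cells that release them, and serum EV preparations hold miRNAs of red cells, platelets, leukocytes, liver and muscle. Reads do not tell the source: fewer vesicles of a type and less of a miRNA per vesicle cannot be told apart in these libraries. Names are given without the prefix mmu.

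The sequences below are mature miRNAs on which the comparison turns. They were taken from RefSeq (GRCm38.p6), in which 220 of the 252 tested miRNAs and 54 of the 68 called ones were matched, and the seed is in capitals. The first 6 are the let-7 members called higher in the late libraries. They share 1 seed and differ from each other at few other bases, so that reads of one could be counted for another.
let-7a-5p: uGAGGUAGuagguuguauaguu
let-7b-5p: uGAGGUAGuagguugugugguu
let-7c-5p: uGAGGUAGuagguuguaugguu
let-7d-5p: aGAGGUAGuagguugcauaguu
let-7e-5p: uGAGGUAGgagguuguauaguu
let-7f-5p: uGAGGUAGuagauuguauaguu

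Other miRNAs called higher included both arms of the miR-423 hairpin, which have unrelated seeds, and miR-26a-5p.
miR-423-5p: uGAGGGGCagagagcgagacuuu
miR-423-3p: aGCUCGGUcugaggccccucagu
miR-26a-5p: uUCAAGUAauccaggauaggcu

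Among those called lower were pairs with the same seed: miR-29a-3p with miR-29c-3p, miR-27b-3p with miR-27a-3p, miR-30a-5p with miR-30e-5p, and miR-93-5p with miR-106b-5p. The last 3 are shown because their levels are described below.
miR-29a-3p: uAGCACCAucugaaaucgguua
miR-29c-3p: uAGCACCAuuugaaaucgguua
miR-27b-3p: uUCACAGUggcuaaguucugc
miR-27a-3p: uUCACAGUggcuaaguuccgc
miR-30a-5p: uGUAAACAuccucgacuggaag
miR-30e-5p: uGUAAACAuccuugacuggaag
miR-93-5p: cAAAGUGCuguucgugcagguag
miR-106b-5p: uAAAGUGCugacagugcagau
miR-16-5p: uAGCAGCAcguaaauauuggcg
miR-22-3p: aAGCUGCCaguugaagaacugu
miR-541-5p: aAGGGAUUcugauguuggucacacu

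The median depth was lower in the late libraries. Total counts ranged from 63956 to 471801 in the early libraries (median 141194) and from 65017 to 245013 in the late ones (median 77345), a difference of -0.65 in log2 total (two-sided permutation test, p = 0.0286, 0.0571 after adjustment over 2 measures, which missed the threshold). A count of 0 allows 3 counts, or 6.36 to 46.9 CPM of the unscaled library total, depending on the library. The levels given below are on scaled library sizes, and such limits cover counting error only. The log2 ratio of miR-451a to miR-23a-3p, a sign of lysed red cells, was -0.50 ± 0.75 (SD, n = 12) in the early and -1.003 ± 0.62 in the late libraries (two-sided permutation test, p = 0.0856 also after adjustment). The adjusted p of the first measure fell below 0.05 without any 1 of 7 libraries (Control replicates 2, 3 and 6, S6h replicate 5, S24h replicate 6, S72h replicates 1 and 6, differences of -0.77 to -0.69) and that of the second without S72h replicate 6 (-0.63). On the first principal component of the log2 levels (18.2% of the variance) all 12 early and 3 S72h libraries had negative scores, and the 6 S24h and the other 3 S72h libraries had positive ones. There were 2 libraries that stood apart. In S72h replicate 4, 29.8% of the counts were miR-122-5p and the scaling factor was 0.599, and Control replicate 4 had a score of -27.2 on the second principal component. Between the pools 65 miRNAs were called without these 2 libraries, 59 of them among the calls with all libraries.

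The first question was how many miRNAs differed between the pools. A miRNA was called where its adjusted p was below 0.05 and it changed by 1.5 times or more. By edgeR's quasi-likelihood test these were 68 of the 252 miRNAs (27%), 26 higher (10.3%) and 42 lower (16.7%) in the late libraries. At an unadjusted p under 0.05 there were 93. The median log2 fold change over all tested miRNAs was -0.08, that of the higher calls 1.09 and that of the lower calls -1.23. Levels of the 12 late and the 12 early libraries overlapped for every tested miRNA (0 of 252 without overlap, 0%). In 31 of the 68 all 12 late libraries lay on 1 side of the early median, against 34 of the 252 tested. The 68 were chosen for a difference between these same libraries, so this is a description only. The split of calls depended on the scaling of the libraries. With upper quartile scaling, which moved the median log2 fold change by 0.23, 35 were higher and 25 lower, and with relative log expression scaling, which moved it by 0.12, 29 were higher and 34 lower. All 68 kept their sign under both. When the logarithm of the total count was added to the model 47 were called, all among the 68. When every library was thinned to the smallest total 63 were called, 59 of them among the 68. The number of calls was 28 without the S6h group, 32 without the S24h group, 58 without the Control group and 64 without the S72h group, with 12 libraries against 6 in each case.

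**Figure D1:**
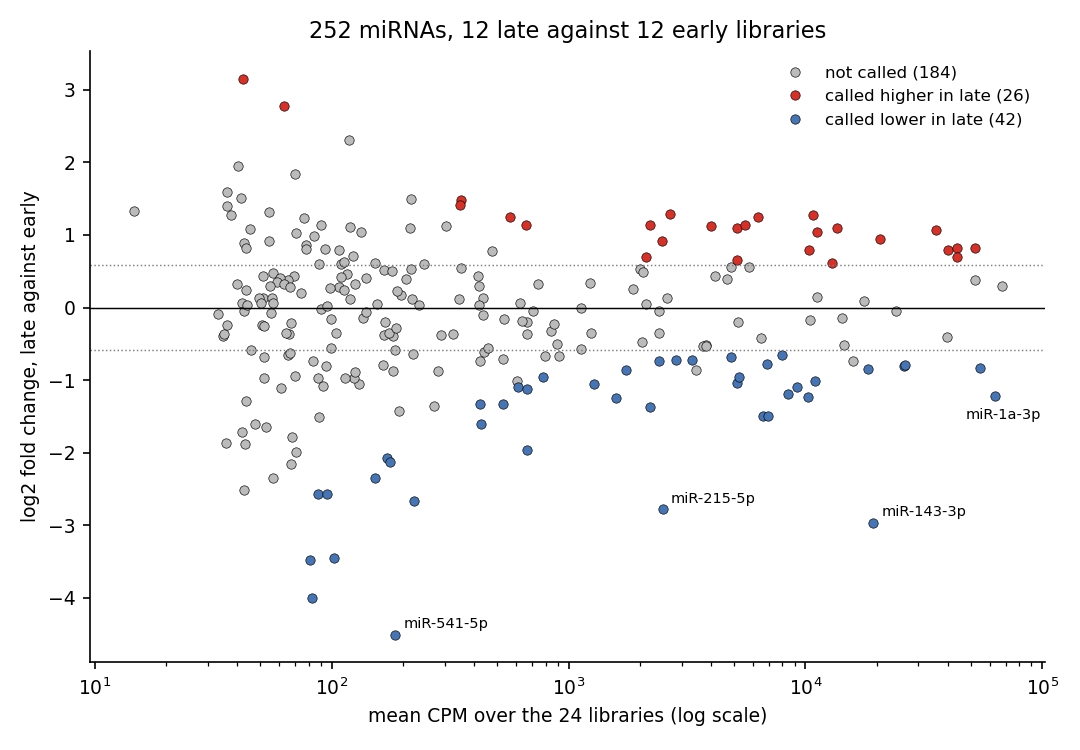
Log2 fold change between the 12 late and the 12 early libraries (vertical axis) against the mean CPM over all 24 libraries (horizontal axis, log scale) for the 252 tested miRNAs. Red points were called higher in the late libraries (26), blue points lower (42) and grey points were not called, and the dotted lines mark a fold change of 1.5.

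The smallest adjusted p belonged to miR-143-3p, which is abundant in smooth muscle and was lower in the late libraries. Its level ranged from 8414 to 89270 CPM in the early libraries (median 34021) and from 1976 to 12232 CPM in the late ones (median 3492). In all, 10 of the 12 late libraries lay below the lowest early one. The log2 fold change was -2.96 (SE 0.36, edgeR, adjusted p = 4.12e-07). In the groups the medians were 16038 CPM in Control, 37044 in S6h, 3120 in S24h and 4545 in S72h.

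Broadly expressed miRNAs of intermediate level followed. miR-27b-3p had 6260 to 15236 CPM (median 8998) in the early and 1293 to 9332 CPM (median 2541) in the late libraries, a log2 fold change of -1.50 (SE 0.24, edgeR, adjusted p = 4.24e-05). Its hairpin lies at chr13:63300712-63300784 of GRCm38.p6 (plus strand), in an exon of 2010111I01Rik and, on the opposite strand, an intron of Fancc. miR-29a-3p, whose family is known to target collagen messenger RNAs, ranged from 8181 to 19066 CPM (median 12069) against 3531 to 13090 CPM (median 5201), with a log2 fold change of -1.09 (SE 0.18, edgeR, adjusted p = 4.54e-05). Only 1 late library, in the S72h group, reached the early range.

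miR-16-5p, a regulator of cell cycle genes, had a median of 10236 CPM early (6210 to 20722) and of 4674 CPM late (3472 to 7923), and its log2 fold change was -1.19 (SE 0.21, edgeR, adjusted p = 7.76e-05). miR-22-3p fell from a median of 9163 CPM (4257 to 18259) to 3148 CPM (1657 to 8875), with a log2 fold change of -1.49 (SE 0.26). In both cases 9 late libraries lay below all early ones and all 12 below the early median. miR-199a-3p (-1.37), miR-10b-5p (-1.04, encoded in the Hoxd cluster) and miR-215-5p (-2.77) were also called lower, with adjusted p values of 0.0017, 0.0017 and 0.000204 by edgeR. miR-215-5p, which is enriched in intestine and kidney, ranged from 1575 to 9591 CPM early (median 3687) and from 0 to 2907 CPM late (median 326), and 2 S24h libraries had no count.

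Several lower miRNAs were near the detection limit in 1 late group, where a fitted fold change has no stable size. miR-541-5p had a median of 258 CPM (0 to 593) in the early pool and no count in any of the 6 S24h libraries. There 3 counts would be 20.9 to 45.0 CPM of the unscaled library total. In the S72h group its median was 152 CPM. The mean over the 12 late libraries was 0.298 times the early mean. Its RefSeq sequence, shown above, is 25 bases long, which exceeds the length of the alignments the authors kept. The same holds for miR-182-5p, described below, whose sequence also has 25 bases. miR-215-3p, the other arm of the miR-215 hairpin, was also without counts in S24h (late over early mean 0.275). miR-511-5p, from an intron of the macrophage mannose receptor gene, did not exceed 1 count in the S72h libraries (late over early mean 0.205), and miR-182-5p at most 3 (0.113). All 4 were called lower by edgeR (adjusted p = 0.000204, 0.00259, 0.00295 and 0.00701). The calls of miR-541-5p and miR-215-3p were lost without the S24h group (-0.72 and -0.87) and with the 2 pools as the only factor. That of miR-511-5p was lost without the S72h group (-1.27) and with the 2 pools as the only factor, and that of miR-182-5p without the S6h or the S72h group (-2.41 without S72h). The test required at least 10 CPM in 12 of the 24 libraries, and these 4 met this through the early pool. At least 10 CPM was found for miR-541-5p and miR-215-3p in 11 early and 5 late libraries each, for miR-511-5p in 12 and 3, and for miR-182-5p in 9 and 3. miR-379-5p (11 and 5) and miR-218-5p (10 and 5), which are described with their lists, also did so. The calls of these 6 are no support for a difference.

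Most called miRNAs were abundant in both directions: 20 of the 26 called higher and 25 of the 42 called lower had a mean of at least 1000 CPM, against 77 of the 252 tested. miR-320-3p, whose precursor bypasses Drosha, ranged from 3526 to 11887 CPM (median 5248) in the early and from 6042 to 26363 CPM (median 14637) in the late libraries. Its log2 fold change was 1.27 (SE 0.20, edgeR, adjusted p = 4.24e-05), and 10 late libraries lay above the highest early one. Both arms of the miR-423 hairpin rose. miR-423-3p went from a median of 3548 CPM (1534 to 6532) to 8327 CPM (6432 to 13490), a log2 fold change of 1.25 (SE 0.21). miR-423-5p went from 8031 CPM (5308 to 15328) to 19328 CPM (11469 to 24558), a log2 fold change of 1.09 (SE 0.18), and both had an adjusted p of 4.54e-05 by edgeR. The hairpin lies at chr11:77078064-77078172 of GRCm38.p6 (minus strand), in an intron of Nsrp1.

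let-7b-5p rose from a median of 23190 CPM (14422 to 29457) to 47123 CPM (22697 to 71183), with a log2 fold change of 1.08 (SE 0.20, edgeR, adjusted p = 0.000204). Of the late libraries 10 lay above all early ones, and 1, of the S72h group, lay below the early median. Apart from miR-145a-5p, which is described with the smooth muscle list, miR-484 (1.12), miR-221-3p (1.05, encoded beside miR-222 on chromosome X), miR-185-5p (1.29), miR-151-5p (0.92) and miR-26a-5p (0.94) were the further higher miRNAs with the smallest adjusted p values, from 0.000235 to 0.00185 by edgeR. For the first 4 of these all 12 late libraries lay above the early median, and for miR-26a-5p 11 did. The largest fitted increases belonged to 2 rare miRNAs chosen after their values were seen. miR-196b-5p was without counts in 9 early libraries and miR-483-5p in 8, and the late means were 76.0 and 109 CPM. They reached 10 CPM in 3 early and 9 late libraries and in 4 early and 8 late libraries, so that both entered the test through the late pool, and their calls are no support for a difference.

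**Figure D2:**
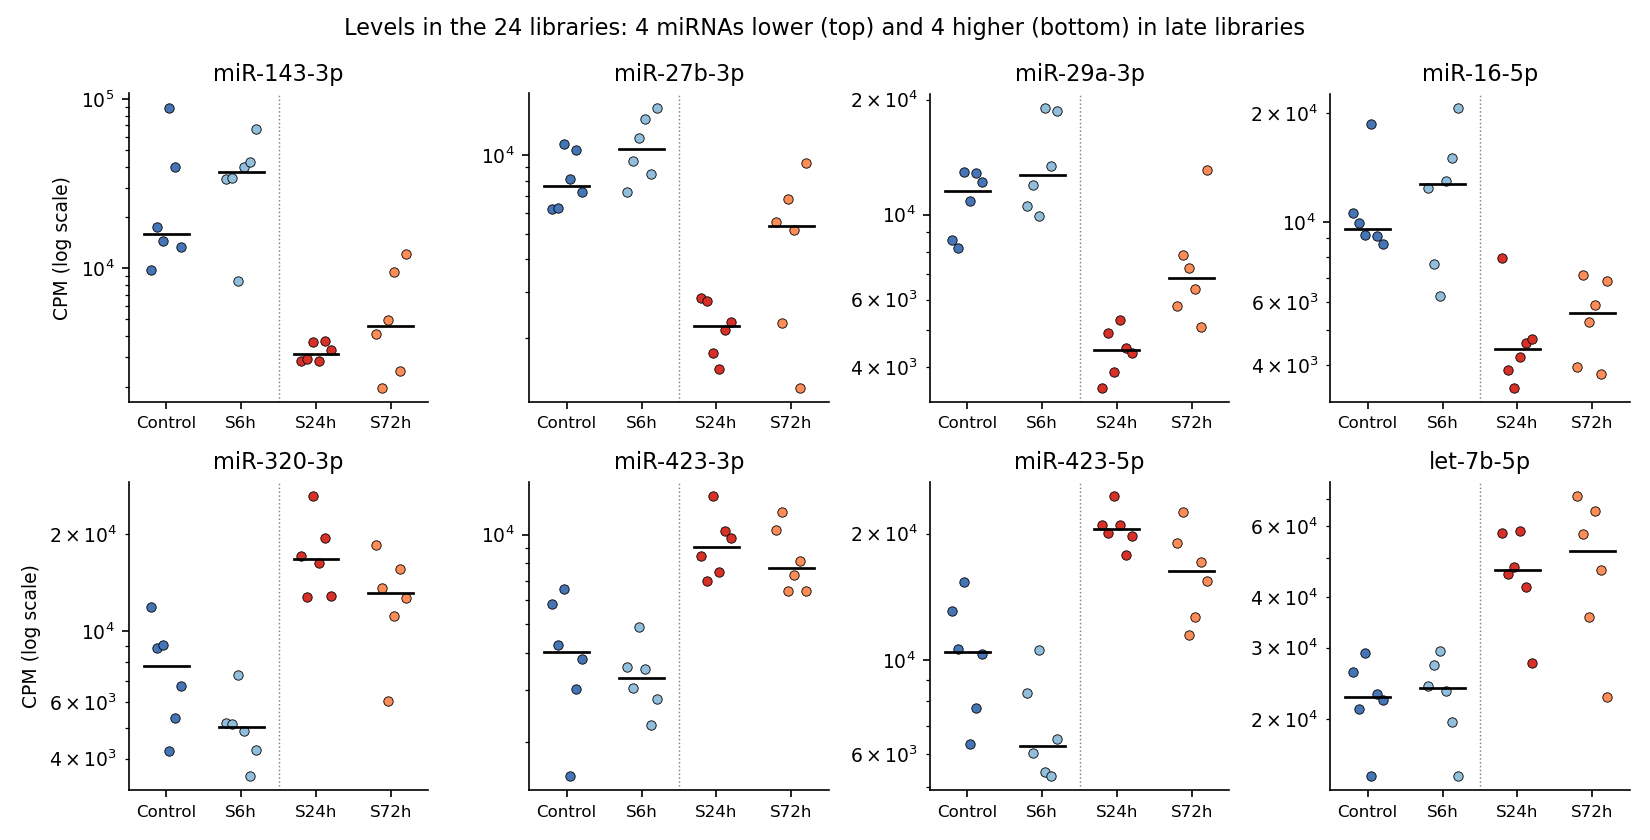
CPM (log scale, library sizes scaled by the trimmed mean of M values) in each library of the 4 groups for the 4 miRNAs with the smallest adjusted p among those lower (top row) and higher (bottom row) in the late libraries. Each point is 1 mouse, horizontal bars are group medians, and the dotted line divides early from late groups. For miR-143-3p the S24h libraries lie between 2824 and 3727 CPM, below all early libraries.

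A difference between the pools could come from 1 late or 1 early group. Each late group was therefore compared with each early group on the 12 libraries concerned alone. edgeR called 37 miRNAs in S24h against Control (14.7%), 23 in S72h against S6h (9.13%), 60 in S24h against S6h (23.8%) and 0 in S72h against Control (0%, 41 at an unadjusted p under 0.05). In 1 model of all 4 groups the last count was 9. The S72h against S6h count was 15 without S6h replicate 4, and that of S72h against Control was 1 without Control replicate 1.

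A pair of these comparisons, S24h against Control and S72h against S6h, shares no library. Of the 37 miRNAs called in the first, 35 had the same sign in the second, 22 of them with an unadjusted p under 0.05 and 9 called. Over all 252 tested miRNAs the signs agreed for 184 (73.0%). The 2 exceptions were miR-192-5p (-1.71 and 0.65) and miR-101a-3p (-1.57 and 0.35), which are given because they are the only ones. All 11 miRNAs higher in the first comparison were also higher in the second with an unadjusted p under 0.05, with medians of 1.08 and 1.15 on the log2 scale. The 26 lower miRNAs had medians of -1.64 and -0.69, and 11 of the 24 with the same sign reached an unadjusted p under 0.05. All 23 miRNAs called in S72h against S6h had the same sign in S24h against Control, 15 of them with an unadjusted p under 0.05.

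Called in both were let-7b-5p, miR-145a-5p, miR-185-5p, miR-320-3p, miR-423-3p and miR-423-5p, all higher, and miR-16-5p, miR-22-3p and miR-143-3p, all lower. The log2 fold changes of miR-423-3p were 1.18 and 1.39, those of miR-16-5p -1.20 and -1.13, and those of miR-143-3p -3.25 and -2.67. The other division into comparisons without a common library gave less. Of the 60 miRNAs called in S24h against S6h, 53 had the same sign in S72h against Control, against 70.2% of all tested, 22 had an unadjusted p under 0.05 and 0 were called. The exceptions were miR-149-5p, miR-133a-3p, miR-1a-3p, miR-499-5p, miR-101a-3p, miR-150-5p and miR-23a-3p, of which miR-1a-3p, miR-133a-3p and miR-499-5p are miRNAs of striated muscle.

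**Figure D3:**
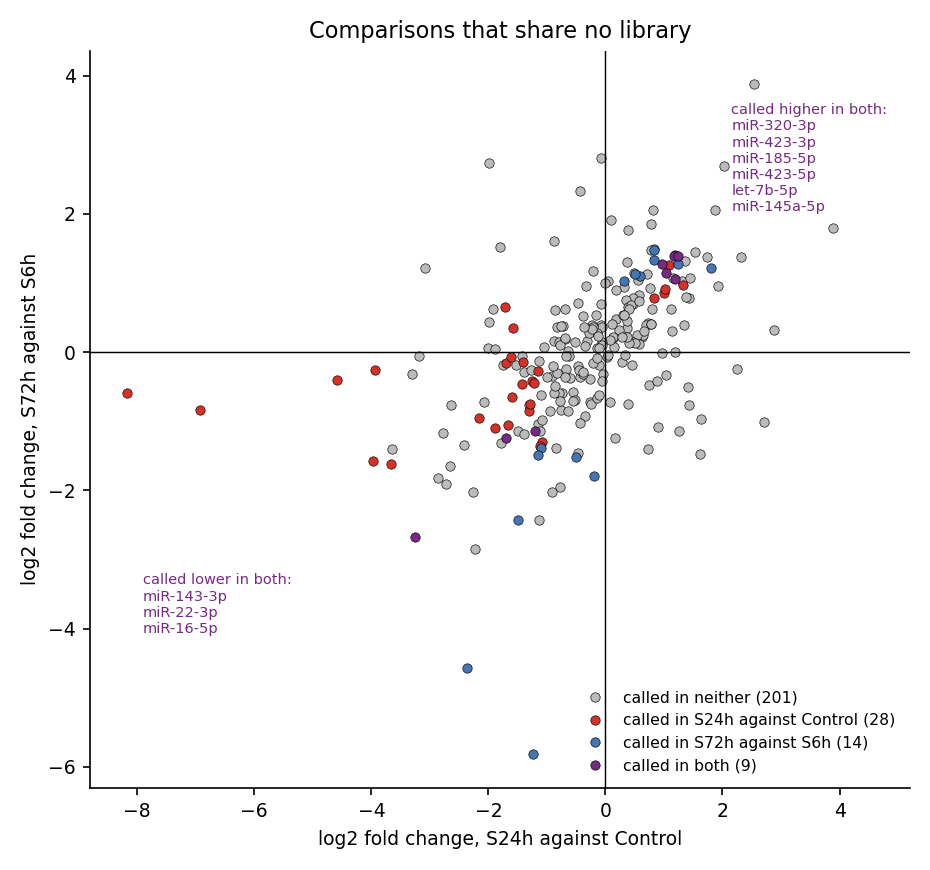
Log2 fold changes of the 252 miRNAs in S24h against Control (horizontal) and in S72h against S6h (vertical), each fitted on its own 12 libraries, with no library in common. Purple points were called in both (9, named in the plot), red points in the first only (28), blue points in the second only (14) and grey points in neither (201). Points far out at the left and the bottom include miRNAs without counts in a group, whose fitted size is not stable.

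Within the pools few miRNAs differed. edgeR called 0 in S6h against Control (0%, 9 at an unadjusted p under 0.05, and 0 with DESeq2) and 1 in S72h against S24h (0.397%), which was miR-541-5p (adjusted p = 0.00251). The second count was 4 with DESeq2. It was 5 without S24h replicate 2, S72h replicate 2 or S72h replicate 5, 3 without S72h replicate 1 and 2 without S24h replicate 6. For all 26 higher miRNAs both steps within the pools were smaller than the step between them, against 130 of the 252 tested (medians 0.68, 0.37 and 0.47), but the 26 were chosen for a large step between the pools. Their median absolute log2 difference was 1.09 between the pools, 0.21 from Control to S6h and 0.14 from S24h to S72h. This held for 32 of the 42 lower ones, with medians of 1.23, 0.32 and 0.75.

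The S72h level lay nearer to the early level than the S24h level in 35 of the 42 lower and in 16 of the 26 higher miRNAs, and in 160 of the 252 tested. The smallest p values in S72h against S24h belonged, after miR-541-5p, to miR-215-3p, miR-27b-3p (log2 1.19), miR-194-5p (2.68) and miR-101a-3p (1.81), with adjusted p values from 0.0567 to 0.127. In S6h against Control they belonged to miR-122-5p (-2.64), miR-1a-3p (1.67), miR-150-5p (-0.9996), miR-484 (-0.76) and miR-423-5p (-0.59), none with an adjusted p under 0.99. miR-484 and miR-423-5p were thus lowest in S6h, with medians of 1681 and 6266 CPM, against 2723 and 10473 CPM in Control and 5626 and 20512 CPM in S24h.

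Of the 68 miRNAs, 10 were called between the pools and in none of the 4 comparisons of single groups. The 5 with the smallest p were miR-103-3p (0.69), miR-125a-5p (-0.65), miR-669c-5p (1.13), miR-146a-5p (-0.73, an inhibitor of inflammatory signalling) and miR-379-5p (-2.56). In the other direction 13 were called in at least 1 comparison of single groups (11 in 1 and 2 in 2) and not between the pools, of which those with the smallest p between the pools were miR-328-3p (0.57), miR-30d-5p (-0.52), miR-148a-3p (-0.86), miR-125b-5p (-0.52) and miR-19a-3p, which had at most 2 counts in any S24h library and a late mean 0.244 times the early one. miR-19a-3p reached 10 CPM in under 6 late libraries and entered the test through the early pool, so its call is no support for a difference.

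Lists of miRNAs of tissues and families were read next, by their counts and medians. They were chosen with results of these data known and no list was tested. For comparison, higher calls made up 10.3% and lower calls 16.7% of the 252 tested miRNAs, of which 134 had a negative value. The let-7 family, which restrains proliferation and growth factor signalling, was the list with the most higher calls: 6 of its 9 tested members (median log2 0.70, against -0.08 over all tested). let-7b-5p was described above. let-7a-5p (0.83), let-7c-5p (0.80), let-7d-5p (0.61), let-7e-5p (1.14) and also let-7f-5p (0.70) were called, whereas let-7g-5p (-0.04), let-7i-5p (0.09) and miR-98-5p (0.53) were not. let-7g-5p had a positive value with upper quartile and relative log expression scaling. The summed level ranged from 124267 to 245261 CPM early (median 179826) and from 155477 to 439815 CPM late (median 272392). The number called was 5 to 7 under the scalings and 3 without both libraries that stood apart.

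The family members let-7b and let-7c are encoded beside each other on chromosome 15 (chr15:85706603-85707403, plus strand, exons of Lncppara), and both rose. let-7c-5p also comes from a hairpin on chromosome 16 beside that of miR-99a-5p (-0.20, not called), and reads do not tell its loci apart. let-7e-5p was called higher while miR-125a-5p, from the neighbouring hairpin on chromosome 17 (chr17:17830352-17830879), was called lower (-0.65). This call of miR-125a-5p was lost in 15 of 21 alternatives, among them DESeq2 (-0.54) and upper quartile scaling (-0.46). The seed of miR-26 is unlike that of miR-103 and miR-107, but all are abundant in many tissues. In this list miR-26a-5p (0.94) and miR-103-3p (0.69) were called higher, and miR-26b-5p (0.56) and miR-107-3p (-0.64) were not called. Of the miR-181 family, regulators of lymphocyte development, miR-181c-5p (1.49) was called, and miR-181a-5p (0.40) and miR-181b-5p (-0.22) were not.

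In the miR-29 family 2 of 3 tested members and in the miR-30 family 3 of 5 were called lower. All 3 tested members of the miR-29 family had a negative value, and miR-29a-3p and miR-29c-3p (-2.67, early median 355 CPM, late median 57.3 CPM) were called while miR-29b-3p (-1.08) was not. The median of the list was -1.09 and it stayed between -1.71 and -0.998 under all scalings. In the miR-30 family miR-30a-5p (-1.23), miR-30e-5p (-0.78) and miR-30b-5p (-0.73) were called, and miR-30d-5p (-0.52) and miR-30c-5p (-0.17) were not. With upper quartile scaling 1 of the 5 was called. The call of miR-30b-5p was lost in 15, that of miR-30e-5p in 5 and that of miR-30a-5p in 2 of 21 alternatives. Among miR-99, miR-100 and miR-125, miR-125a-5p was called and miR-99a-5p (-0.20) and miR-125b-5p (-0.52) were not.

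Clusters of hairpins were read in the same way. Of the 6 tested arms of the miR-25, miR-93 and miR-106b hairpins in the Mcm7 gene, which promote cell cycle progression, 4 were called lower: miR-25-3p (-1.02), miR-93-5p (-0.95), miR-106b-5p (-0.96) and miR-106b-3p (-1.13). The other arms, miR-25-5p (0.99) and miR-93-3p (0.62), were not called. The number called was 2 with upper quartile scaling, and over all tested 16.7% were called lower. In the related miR-17-92 cluster 0 of 8 were called, with 0.23 for miR-20a-5p and -0.15 for miR-92a-3p. In the miR-23-27-24 clusters miR-27b-3p, miR-27a-3p (-0.68), miR-24-3p (-0.80) and miR-24-2-5p (-0.86) were called lower and miR-23a-3p (-0.41) was not. Under upper quartile scaling 2 of the 7 tested members were called. The calls of miR-27a-3p and miR-24-2-5p were lost in 10 of 21 alternatives each, that of miR-24-3p in 2 and that of miR-27b-3p in 0.

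The imprinted Dlk1-Dio3 region of chromosome 12 encodes a large miRNA cluster that is expressed in brain, muscle and embryonic tissues. Of 45 listed members 13 were tested, and 12 of these had a negative value (11 with upper quartile scaling). The median was -1.60, the value of miR-127-5p, and it was the same with miR-541-5p taken at the ratio of its means. The lower calls were miR-434-3p (-1.96), miR-379-5p (-2.56) and miR-541-5p, 3 of 13 against 16.7% of all tested (6 with limma-voom and 2 with upper quartile scaling), and miR-382-5p (-1.36) was not called. miR-379-5p and miR-541-5p have the limit of the filter given above. Among the members not called, miR-127-5p, miR-409-3p, miR-485-3p and miR-543-3p also reached 10 CPM in under 6 late libraries. They too entered the test through the early pool, so the number of negative values and the median are no support for a difference. miR-434-3p had 456 to 1552 CPM early (median 1094) and 0 to 960 CPM late (median 230), so that 11 late libraries lay below all early ones. The summed level of the list ranged from 1853 to 4393 CPM in the early and from 195 to 2488 CPM in the late libraries. The median stayed between -1.73 and -1.36 under all scalings and without the libraries that stood apart.

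In the epithelial list 4 of the 9 tested members were called lower (16.7% of all tested). All 9 had a negative value (8 of 9 under some other scalings), against 134 of the 252 tested, with a median of -1.06. The 4 were miR-375-3p (-1.32, a miRNA of endocrine and epithelial cells), miR-200a-3p (-2.35), miR-203-3p (-1.06, of keratinocytes) and miR-182-5p, the last with the limit given above. miR-375-3p ranged from 237 to 1458 CPM early (median 592) and from 126 to 539 CPM late (median 250). miR-205-5p, with -0.35, was not called. Nor was miR-183-5p (-1.78), which also reached 10 CPM in under 6 late libraries. It entered the test through the early pool, so its sign and that of miR-182-5p are no support for a difference. The summed level had a median of 4898 CPM early (2884 to 6922) and 2403 CPM late (1628 to 5177), and miR-141-3p, miR-429-3p and miR-96-5p were below the filter.

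In the striated muscle list 2 of 6 tested members were called lower. miR-1a-3p was called lower, from a median of 59906 CPM (28638 to 277376) to 20300 CPM (4183 to 235365), with a log2 fold change of -1.22 (SE 0.45, edgeR, adjusted p = 0.0407). Its medians were 37280 CPM in Control, 101240 in S6h, 20834 in S24h and 17697 in S72h, so that it was highest in S6h. Without the S6h group its log2 fold change was -0.38, and in S72h against Control it was 0.50. The call was lost in 13 of the 20 alternatives that tested it, among them DESeq2. miR-499-5p, from a slow myosin gene, was called lower (-2.12, lost in 8 of 20 alternatives), and miR-133a-3p (-0.74) was not. Without S72h replicate 1 miR-133a-3p was called, at -1.21 (edgeR, adjusted p = 0.0114). The summed level of the list ranged from 39233 to 319903 CPM early and from 6112 to 294582 CPM late. With upper quartile scaling 0 of the 6 were called.

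In the smooth muscle list 1 of the 3 tested members was called higher and 2 lower. The miR-143 and miR-145a hairpins are neighbours. miR-145a-5p rose from a median of 3143 CPM (1642 to 5266) to 6439 CPM (4349 to 11919), a log2 fold change of 1.09 (SE 0.22, edgeR, adjusted p = 0.000467), while miR-143-3p and the other arm of the miR-145a hairpin, miR-145a-3p (-1.60), fell. The log2 ratio of miR-143-3p to miR-145a-5p, which needs no scaling between libraries, was above 0 in all 12 early libraries (median 3.23, 0.98 to 5.32) and in 2 of the 12 late ones (median -1.12, -1.77 to 1.13). It was computed after the values were seen and is given without a test. All 6 S24h libraries were below 0, and the 2 late libraries above 0 were of the S72h group.

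In the erythroid list 3 of 6 tested members were called lower. These were miR-451a (-0.78), miR-486a-5p (-0.85) and miR-486b-5p (-0.84), of which the last 2 have near-identical sequences. miR-451a was called with an adjusted p of 0.0438 by edgeR, and its median was 30368 CPM early (18633 to 49053) and 13892 CPM late (7303 to 75740). This call was lost in 13 of 21 alternatives, and those of miR-486a-5p and miR-486b-5p in 5 each. With upper quartile scaling 0 of the 6 were called. The summed level of the list ranged from 76510 to 218671 CPM early (median 124388) and from 24599 to 160938 CPM late (median 64790), in the same direction as the ratio of miR-451a to miR-23a-3p. When the list was left out of the scaling 66 miRNAs were called between the pools, all of them among the 68, but the part of red cell miRNAs in single results was not tested.

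In the platelet list miR-199a-3p, miR-199b-3p (-1.33) and miR-223-3p (-0.73, abundant in myeloid cells and platelets) were called lower and miR-191-5p (0.82) higher, whereas miR-126a-3p (0.43, also of endothelium) was not called. The summed level had a median of 42065 CPM early (24595 to 60427) and 66646 CPM late (48966 to 77394). Most of it was miR-191-5p, with medians of 30017 CPM and 54884 CPM. Mature miR-199a-3p and miR-199b-3p are known to be identical, so that their counts are divided by the counting procedure. In the leukocyte list miR-146a-5p, miR-223-3p and miR-511-5p, the last with the limit given above, were called lower, and the B and T cell miRNA miR-150-5p (0.49) was not called. The call of miR-223-3p was lost in 9 and that of miR-146a-5p in 8 of 21 alternatives, and with upper quartile scaling 1 member of the list was called lower and 1 higher. The medians of both lists lay near 0 (-0.01 and -0.05) and were positive under some of the scalings.

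The remaining tissue lists held few calls. Of 3 liver miRNAs 0 were called, with 0.38 for miR-122-5p, -0.53 for miR-192-5p and -0.16 for miR-194-5p. miR-122-5p, which makes up most of the miRNA of hepatocytes, ranged from 3403 to 183639 CPM in Control and from 4344 to 497815 CPM in S72h. Its pooled value changed sign without S72h replicate 4: miR-122-5p was then called lower (-1.39, edgeR, adjusted p = 0.0380) and miR-194-5p too (-1.29, adjusted p = 0.0253). In the cartilage list miR-140-3p (0.79) was called higher and miR-140-5p (1.11) was not. In the brain list miR-218-5p (-2.57, with the limit given above) was called lower, miR-128-3p (0.14) and miR-7a-5p (-0.50) were not called, and 3 of 15 members had no count in any library. miR-124-3p, which is specific to neurons, was below the filter. miR-21a-5p, the most abundant miRNA of all libraries (mean 67500 CPM), did not pass the threshold (0.30).

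**Figure D4:**
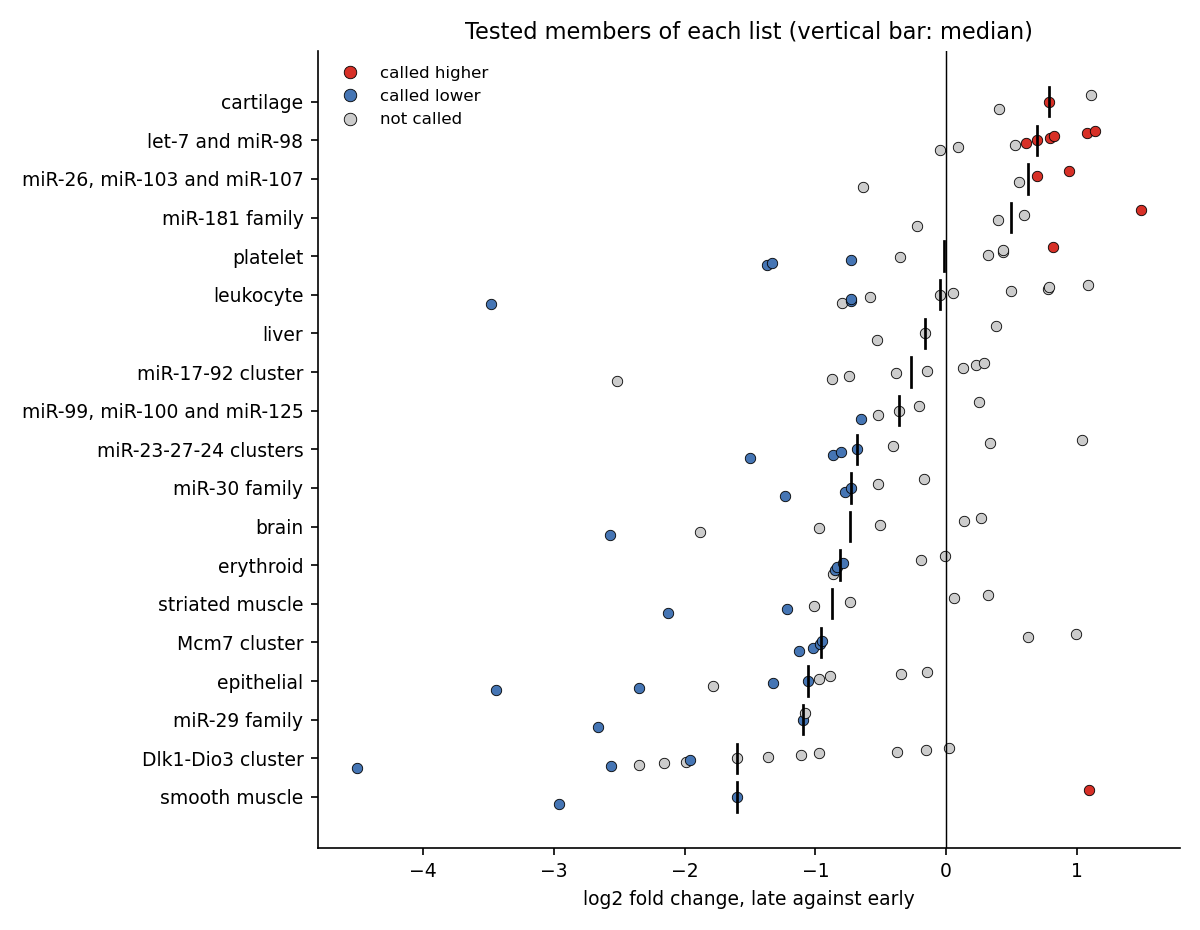
Log2 fold change between late and early libraries for the tested members of 19 lists, ordered by the list's median (vertical bar). Red members were called higher, blue lower and grey were not called. All 3 members of the miR-29 list and all 9 of the epithelial list (8 under some other scalings) lie left of 0, and 8 of the 9 let-7 members (9 under some other scalings) lie right of it.

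A qPCR assay was also made for miR-143-3p, miR-499-5p, miR-375-3p, miR-1a-3p and miR-541-5p, with miR-103-3p as the reference. The first 5 were selected on the same libraries, so that their calls here, all lower, are no independent evidence. The reference miR-103-3p was called higher in the sequencing counts, from a median of 1777 CPM (949 to 2326) to 2697 CPM (1525 to 3416), a call that was lost in 4 of 21 alternatives.

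The arms of a hairpin come from 1 precursor, and their ratio within a library needs no scaling. Of 50 hairpins with both arms tested, 3 had a different ratio in the pools after adjustment over the 50 (two-sided permutation tests on log2 of 5p over 3p with a pseudocount of 4 CPM). For miR-151 the log2 ratio was 0.84 ± 0.80 (SD, n = 12) in the early and 2.13 ± 0.58 in the late libraries, and all 12 late libraries lay above the early median (adjusted p = 0.0085 by permutation). Its 5p arm was called higher, and the 3p arm (-0.32) was not called. For miR-145a the ratio was 2.71 ± 1.47 early and 5.10 ± 1.19 late (adjusted p = 0.0105 by permutation). Here the arms were called in opposite directions, 1.09 for miR-145a-5p and -1.60 for miR-145a-3p, the only hairpin of the 50 with opposite calls.

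For miR-674 the ratio rose from -3.40 ± 1.45 to -1.50 ± 1.12 (adjusted p = 0.0287 by permutation), with 1.12 for miR-674-5p and -0.57 for miR-674-3p, neither called. This difference lost its call without any 1 of 8 libraries, which were S6h replicates 2, 4 and 5, S24h replicates 1, 3 and 6 and S72h replicates 2 and 5 (1.72 to 1.85, adjusted p = 0.0511 to 0.0635 by permutation). miR-22 and let-7d were next, both with an adjusted p of 0.0517. The count of hairpins was 5 without S6h replicate 3 or S24h replicate 4, and 7 with a pseudocount of 10 CPM.

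**Figure D5:**
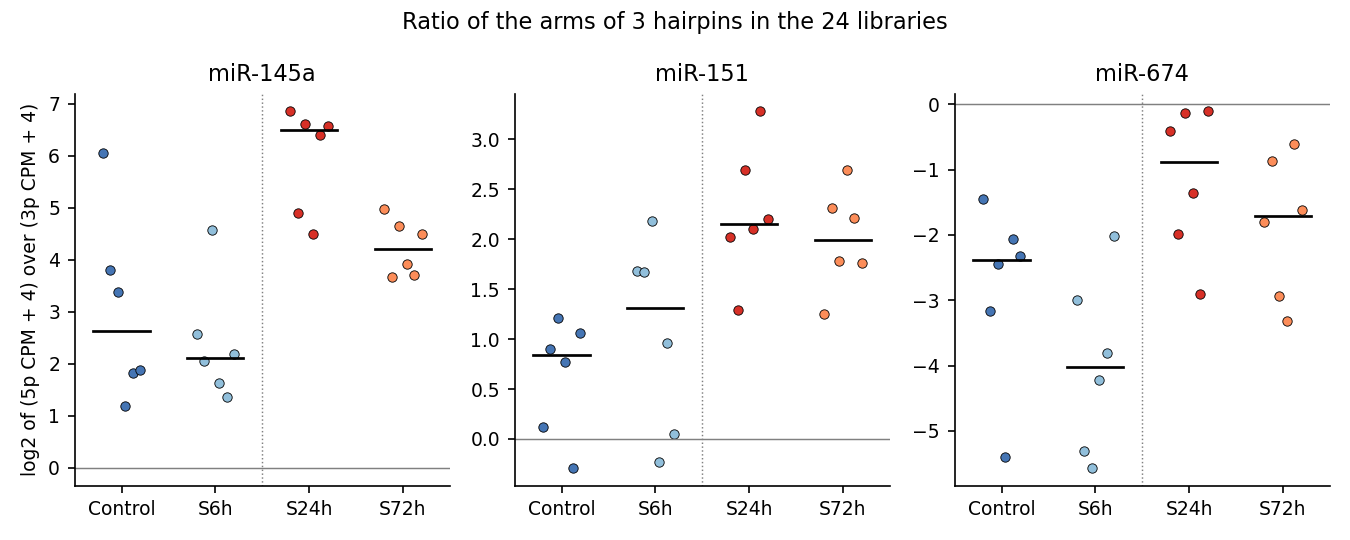
Log2 ratio of the 5p to the 3p arm (CPM + 4) in each library of the 4 groups for the 3 hairpins whose ratio differed between the pools. Points are mice, horizontal bars are group medians and the dotted line divides early from late groups. For miR-151 the late libraries lie between 1.25 and 3.28 and the early ones between -0.29 and 2.18.

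Calls of some named miRNAs were lost when 1 library was left out. Of 59 named miRNAs that were called between the pools, 48 kept the call whichever of the 24 libraries was left out. miR-24-2-5p lost it without Control replicate 3 (-0.74, edgeR, adjusted p = 0.0593), miR-203-3p without Control replicate 4 or S24h replicate 6 (-0.93 and -0.89), miR-218-5p without Control replicate 5, S6h replicate 5 or S24h replicate 6 (-2.41 to -2.17) and miR-125a-5p without Control replicate 4, S6h replicate 4 or S72h replicate 6 (-0.58 to -0.55). let-7d-5p and miR-499-5p lost it in 6 of the 24 fits each (0.52 to 0.58 and -2.06 to -1.79), in the first case without Control replicate 4, S6h replicates 4 and 6, S24h replicate 1 or S72h replicates 2 and 5, and in the second without Control replicates 3 and 5, S6h replicates 2, 4 and 6 or S24h replicate 4.

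The calls nearest to the threshold were lost more often, in fits that each left out 1 of the libraries named and in which the fold change stayed of similar size. miR-106b-3p lost it in 9 fits (-1.10 to -0.98), without Control replicates 4 and 5, S6h replicates 3 and 6, S24h replicates 1, 3 and 6 or S72h replicates 1 and 5. let-7f-5p lost it in 10 fits (0.60 to 0.72), without Control replicates 4 and 5, S6h replicates 4 and 6, S24h replicates 4, 5 and 6 or S72h replicates 2, 4 and 5. miR-1a-3p lost it in 12 fits (-1.23 to -1.05), without Control replicates 3, 4 and 5, S6h replicates 2 and 4, S24h replicates 3, 5 and 6 or S72h replicates 2, 3, 5 and 6. miR-451a lost it in 13 fits (-0.81 to -0.69), without Control replicates 3, 4 and 5, S6h replicates 3, 4 and 6, S24h replicates 3, 4, 5 and 6 or S72h replicates 2, 3 and 5. miR-30b-5p lost it in 15 fits (-0.75 to -0.63), without Control replicates 1, 3, 4 and 5, S6h replicates 3, 4 and 6, S24h replicates 3, 4, 5 and 6 or S72h replicates 2, 3, 4 and 5. The adjusted p values of these fits ranged from 0.0502 to 0.103 by edgeR. At the other end, 12 named miRNAs were called under every alternative that tested them and in all 24 fits with 1 library left out. These were miR-143-3p, miR-27b-3p, miR-29a-3p, miR-16-5p, miR-22-3p, miR-215-5p, miR-320-3p, miR-423-3p, miR-423-5p, let-7b-5p, miR-145a-5p and miR-185-5p.

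Some miRNAs that were not called between the pools passed both thresholds with 1 library left out. miR-26b-5p did so without Control replicate 4, S6h replicate 2, S24h replicates 2, 3 and 6 or S72h replicate 1 (0.59 to 0.62). miR-328-3p did so without Control replicate 1, S6h replicate 3, S24h replicates 1, 5 and 6 or S72h replicates 4 and 6 (0.59 to 0.67). miR-19a-3p, whose fitted size is not stable, did so without Control replicate 4, S6h replicates 1 and 2, S24h replicate 3 or S72h replicates 4 and 6. It entered the test through the early pool, so that these fits are no support for a difference. miR-148a-3p did so without Control replicate 2, S24h replicates 2 and 6 or S72h replicates 3 and 4 (-1.07 to -0.92). miR-674-3p did so without Control replicate 4 (-0.69). miR-125b-5p did so without S72h replicate 4 (-0.61). miR-382-5p did so without S24h replicate 2 or S72h replicate 1 (-1.89 to -1.66). miR-101a-3p did so without S72h replicate 4 (-1.10). miR-192-5p did so without S24h replicate 2 (-1.04). For miR-133a-3p, miR-122-5p and miR-194-5p the libraries are named above.

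Of 10 seed groups with at least 3 tested members, let-7 (GAGGUAG) held 6 higher calls among 9 members (10.3% of all tested) and no other group more than 1. These groups hold only members with a RefSeq sequence, which leaves out miR-30b-5p and miR-30d-5p. The groups of miR-29 (AGCACCA), miR-30 (GUAAACA) and miR-93 (AAAGUGC) held 2 lower calls each, of 3, 3 and 4 members, and those of miR-16 (AGCAGCA) and miR-125a-5p (CCCUGAG) held 1 of 6 and 1 of 3, against 16.7% of all tested. The median GC content was 46.6% for 20 higher miRNAs with a sequence, 43.7% for 34 lower ones and 47.6% for all 220. Across the 220 miRNAs, which are measured in the same libraries, Pearson's r between GC content and the log2 fold change was 0.19 and Spearman's rho 0.19. A first base U was found in 55% of the higher, 61.8% of the lower and 46.4% of all miRNAs with a sequence.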

How the data were processed

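Per the labels and the study's methods, the authors precipitated EVs from serum, made small RNA libraries with random-base adapters, trimmed them (cutadapt 2.4), aligned them to GRCm38 (Bowtie 1.2.2), kept alignments of mature miRNA length and counted them on miRBase 22 (featureCounts). The deposited values are raw counts per mature miRNA in 24 libraries, 63956 to 471801 in total. No column was left unmatched. Precision of rare miRNAs is limited: in 9 libraries 1 count is at least 10 CPM, and 50 of the 252 tested miRNAs had a median count under 5.

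miRNAs with at least 10 CPM (count over library total) in at least 12 of 24 libraries were kept. Of these, 117 reached 10 CPM in all 24 libraries, and 8 called miRNAs, 6 lower and 2 higher, did so in under 6 libraries of the pool where they were low. Levels are CPM on library sizes scaled by the trimmed mean of M values. A model of the 4 groups was fitted with edgeR 4.0.16 (quasi-likelihood, R 4.3.3), and the mean of S24h and S72h was compared with the mean of Control and S6h. p values were adjusted by Benjamini and Hochberg over the 252, and called means an adjusted p under 0.05 with a fold change of at least 1.5. Single groups were compared on their own 12 libraries. Ratios and totals were compared by two-sided permutation tests with 1e+05 resamples (scipy 1.17.1). DESeq2 1.42.0 and limma 3.58.1 (voom) were alternatives. The tests were tried on simulated counts.

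The members and lists were chosen with earlier results of these data known. Named miRNAs were the 10 higher and 10 lower ones with the smallest adjusted p, the called members and the 2 most abundant members of each list, the 5 most abundant of all, the 5 with the smallest p in each comparison within a pool, both arms of hairpins whose arm ratio passed, those called in both of 2 comparisons without a common library, up to 5 called between the pools only and up to 5 of the reverse, and the qPCR miRNAs. Others are named because a count or list member is described and were chosen after their values were seen. Each library is 1 mouse. The leaving out of 2 libraries together and that of miR-122-5p with miR-1a-3p were added after seeing the data.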

Additional observations from a re-analysis of the deposited data

Results flagged for a closer look

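Single libraries were far from the other 5 of their group in 8 of 104 groups of values examined, where chance alone gives about 1 in 20 (5.2 of 104). The gap to the nearest library, as a share of the group's range, was 0.672 for miR-143-3p in S6h replicate 3 (13.04 on the log2 scale, against 15.05 to 16.02). For miR-16-5p it was 0.744 in Control replicate 4 (14.19 against 13.08 to 13.37) and 0.627 in S24h replicate 1 (12.95 against 11.76 to 12.21). miR-541-5p had no count in Control replicate 4 (0.741) and S72h replicate 2 (0.696), and miR-434-3p had none in S24h replicate 5 (0.658) and S72h replicate 2 (0.726). The log2 ratio of miR-451a to miR-23a-3p was 0.44 in S72h replicate 6, against -1.12 to -0.68 in the other 5 S72h libraries (0.716).

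The late against early difference itself differed between pairs of groups for miR-541-5p. Its change in S24h against Control differed from that in S72h against S6h (edgeR, adjusted p = 0.0146), and its change in S24h against S6h differed from that in S72h against Control (edgeR, adjusted p = 0.0318). It had no count in S24h. No other miRNA passed these tests with all libraries. The second difference was lost without any 1 of 10 libraries (Control replicates 2, 3 and 6, S6h replicates 1 and 3, S24h replicates 1, 3, 4 and 6 and S72h replicate 1), and with the replicate block 0 miRNAs passed either test. miR-541-5p entered the test through the early pool, so these differences are a description and no support.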

How the results depend on the processing

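All 68 calls between the pools kept their sign under every alternative that tested them, and the number called ranged from 47 to 87 under most: 71 with DESeq2, 77 with limma-voom, 59 with the 2 pools as the only factor, 63 with relative log expression and 60 with upper quartile scaling, 57 with a mean of at least 100 CPM, 55 with 10 CPM in every library, 87 of 667 without a filter, 63 after thinning and 61 when miR-1a-3p and miR-122-5p were removed. A test against a fold of 1.5 (glmTreat) called 26, the fit without S6h 28 and that without S24h 32. With 1 library left out the counts were 60 to 75, and 25 to 45 for S24h against Control, 15 to 34 for S72h against S6h, 40 to 66 for S24h against S6h, 0 to 1 for S72h against Control, 0 for S6h against Control, 1 to 5 for S72h against S24h and 2 to 5 for hairpins. The difference in log2 total was then -0.77 to -0.50 and that in the ratio of miR-451a to miR-23a-3p -0.63 to -0.34. S72h against Control gave 9 in the 4-group model, S72h against S24h gave 4 with DESeq2, and 7 hairpins passed with a pseudocount of 10 CPM. The 2 tests between pairs of groups gave 1 to 2 and 0 to 7 with 1 library left out (2 without S24h replicate 2 or 6 in the first, and in the second 7 without S72h replicate 2, 2 without S24h replicates 2 or 5 or S72h replicates 3 or 5, and 0 without Control replicates 2, 3 or 6, S6h replicates 1 or 3, S24h replicates 1, 3, 4 or 6 or S72h replicate 1).

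The replicate numbers did not pair the libraries: correlations of same-numbered libraries were -0.25 to 0.15, and 0 to 2 of 6 correlated best with their own number. With the replicate block 67 miRNAs were called between the pools, 39, 33, 58 and 1 in S24h against Control, S72h against S6h, S24h against S6h and S72h against Control, and 0 in both tests between pairs of groups.

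Among the named miRNAs signs changed for some of those that were not called, and for none that was. Without S6h they were -0.0049 for miR-150-5p, 0.041 for miR-181b-5p, -0.94 for miR-122-5p and -0.029 for miR-20a-5p. Without S24h the values were 0.041 for miR-192-5p, 0.30 for miR-101a-3p, 0.045 for miR-181b-5p, 0.21 for miR-99a-5p and 1.203 for miR-194-5p. Without S72h they were 0.071 for miR-205-5p and -0.65 for miR-122-5p, and without Control 0.042 for miR-192-5p and 0.13 for miR-194-5p. Upper quartile scaling gave 0.075 for miR-30c-5p, 0.065 for miR-92a-3p and 0.0088 for miR-99a-5p. The log2 total as a covariate gave -0.094 for miR-21a-5p, 0.022 for miR-99a-5p, -0.38 for miR-20a-5p and 0.045 for miR-194-5p. limma-voom gave -0.18 for miR-122-5p and -0.0011 for miR-20a-5p, the replicate block -0.20 for miR-122-5p, the 2 pools alone 0.35 for miR-194-5p, and the removal of miR-1a-3p and miR-122-5p 0.0023 for miR-92a-3p. miR-122-5p was at -1.21 without Control replicate 4 and S72h replicate 4, and with 1 library left out it ranged from -1.39 to 0.59 and miR-194-5p from -1.29 to 0.047. The causes were not tested. Rare miRNAs are limited by depth, since a count of 0 allows up to 46.9 CPM of the unscaled library total.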
